A study of Homo sapiens with 60 samples.

Results

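Soyo-san is a multi-herb formula of East Asian medicine, and its ethanol extract was given to HT29 cells, an established line from a human colorectal adenocarcinoma, at a high dose of 500 µg/mL, a medium dose of 100 µg/mL and a low dose of 20 µg/mL for 24 h. The comparison described here sets the 2 high-dose libraries against the 2 low-dose libraries, 4 of the 60 RNA-seq libraries of the study, chosen by their treatment labels. The 2 medium-dose libraries show where the middle dose lay. No vehicle (DMSO) library enters the comparison, so both sides come from library sets with the same name prefix. The vehicle libraries carry another prefix, so a difference from them cannot be told apart from a difference between sets. For reference, Menthae Herba (mint, by textbook knowledge a constituent of this formula) and the formula Guibi-tang were given at the same 3 doses for the same time, with 3 libraries per dose. All cells were 1 line, and nothing in the labels tells if replicate libraries came from different cultures. The p-values therefore reflect only how far libraries of a group differ, which may be technical.

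Several responses of gut epithelial cells to plant extracts are well known as background. Electrophiles release the transcription factor NRF2 from its inhibitor KEAP1, and NRF2 then binds antioxidant response elements near genes for glutathione synthesis, thioredoxin recycling, NADPH supply and aldehyde or quinone reduction. Planar aromatic compounds activate the aryl hydrocarbon receptor (AHR), whose best known target is the cytochrome P450 gene CYP1A1. Cholesterol synthesis genes are driven together by SREBP2, and interferon-stimulated genes by the STAT and IRF9 complex.

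The 6 Soyo-san libraries held 18844932 to 28081057 expected counts, within the range of the 59 libraries other than the one left out of the fit (18690501 to 36796414). Colon epithelial character was checked with marker lists, which cannot tell HT29 from other colorectal lines. The 11 colon epithelial markers summed to 12197 and 12759 CPM (counts scaled to a fixed library size) at high dose and 12774 and 12769 CPM at low dose. The 9 fibroblast markers summed to 2.13 to 2.64 CPM in these 4 libraries, the 8 blood cell markers to 10.2 to 11.2 CPM and the 5 endothelial markers to 2.25 to 2.59 CPM. COL1A2, DCN, PDGFRA, PTPRC, CD3E and CDH5 had no count in any of them. The 7 hepatocyte markers summed to 252 to 333 CPM, nearly all of it SERPINA1, while APOB had no count. High-dose replicate 1 stood apart from the other Soyo-san libraries: processed pseudogenes, the intronless copies of messenger RNAs, made up 0.326% of its counts, compared with 0.196% to 0.205% for the other 5. Mitochondrial transcripts took 10.4% of its counts and 7.89% in high-dose replicate 2, with 8.99% and 9.48% at low dose.

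At high dose the data show a narrow change of small size. NRF2 and AHR target genes for detoxification and redox supply were higher by up to 1.96-fold and, for CYP1A1, 4.16-fold. Some cholesterol synthesis and goblet cell genes and the brush border gene VIL1 were lower. Interferon-stimulated genes had the lowest list median, although single genes were weakly supported. Of 16978 genes tested, 441 (2.6%) were called at a Benjamini-Hochberg adjusted p under 0.05 in the edgeR quasi-likelihood test, 196 higher (1.15%) and 245 lower (1.44%). The median log2 fold change of all genes was 0.00 (-0.0027). Without high-dose replicate 1 the count was 141 of 17474 genes (0.807%), 58 higher (0.332%) and 83 lower (0.475%). Without high-dose replicate 2 it was 425, and the balance turned, with 309 higher and 116 lower. Without low-dose replicate 1 it was 153, and without low-dose replicate 2 it was 164. With the outlying Saposhnikoviae Radix library back in the shared estimate of spread it was 25. A core of 39 rises and 40 falls was called whichever of the 4 libraries was left out.

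**Figure D1:**
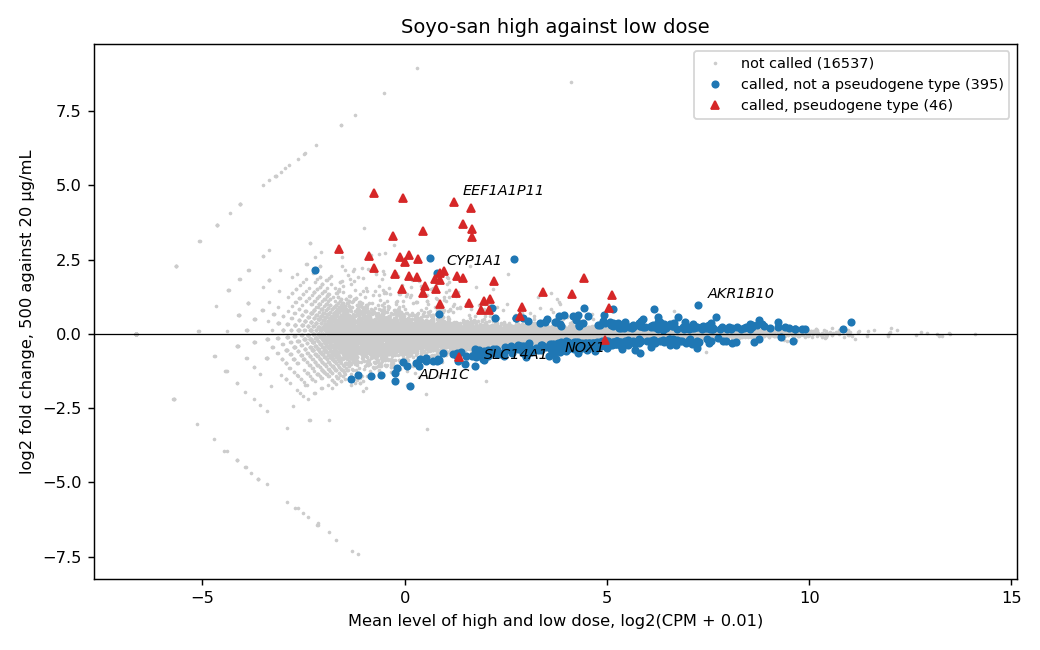
Log2 fold change of 500 against 20 µg/mL Soyo-san for each tested gene, plotted against its mean level, log2(CPM + 0.01). Blue circles are the 395 called genes that are not pseudogenes, red triangles the 46 called genes of a pseudogene type, and grey points the genes not called. The largest rises are pseudogenes, with CYP1A1 among them, while most of the other called genes lie closer to 0, with the lowest called fall of a protein-coding gene, ADH1C, at -1.76.

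Most of the large rises were pseudogenes that were high in 1 library. Of the 42 genes called higher by 2-fold or more, 38 were of a pseudogene type. EEF1A1P11, a processed copy of the elongation factor gene EEF1A1, stood at 8.16 CPM in high-dose replicate 1 and 0.706 CPM in replicate 2, at 0.312 and 0.576 CPM at medium dose, and at 0.112 and 0.282 CPM at low dose. Only high-dose replicate 1 was far above the rest, and the fitted change was a log2 of 4.43 ± 0.78 (SE; adjusted p 0.000342, edgeR), which was no longer called without that library (adjusted p 0.651). EEF1A1 itself, the parent gene, stood at 9482 and 10139 CPM at high dose and 10278 and 10262 CPM at low dose, and was not called. RPL13AP5, a copy of a ribosomal protein gene, was likewise at 77.4 CPM in high-dose replicate 1, with 21.7 CPM in replicate 2 and 20.1 CPM in both low-dose libraries.

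Of 628 processed pseudogenes tested, 38 were called higher and none lower. In 33 of the 38, high-dose replicate 1 was more than 2 times replicate 2, and the median ratio of the first to the second was 4.93, while replicate 2 stood at a median of 1.23 times the low-dose mean. None of these 38 was called without high-dose replicate 1, and all 38 were called without replicate 2, when 142 processed pseudogenes in all were called higher. RSEM can divide reads between a gene and its near-identical copies, and the part this played was not tested. Of the 15 largest rises by the naming rule 14 followed this pattern (EEF1A1P11, RPS27P4, RPS2P55, RPS27AP5, TECRP1, RANP1, EEF1A1P6, EIF1AXP1, EEF1B2P6, RPS3AP26, RPL10AP6, RPL10P16, FTH1P7 and RPL13AP5), none of them called without high-dose replicate 1. The other was CYP1A1. Protein-coding genes numbered 13090, with 146 rises (1.12%) and 234 falls (1.79%), and 2 rises and 10 falls reached 2-fold.

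**Figure D2:**
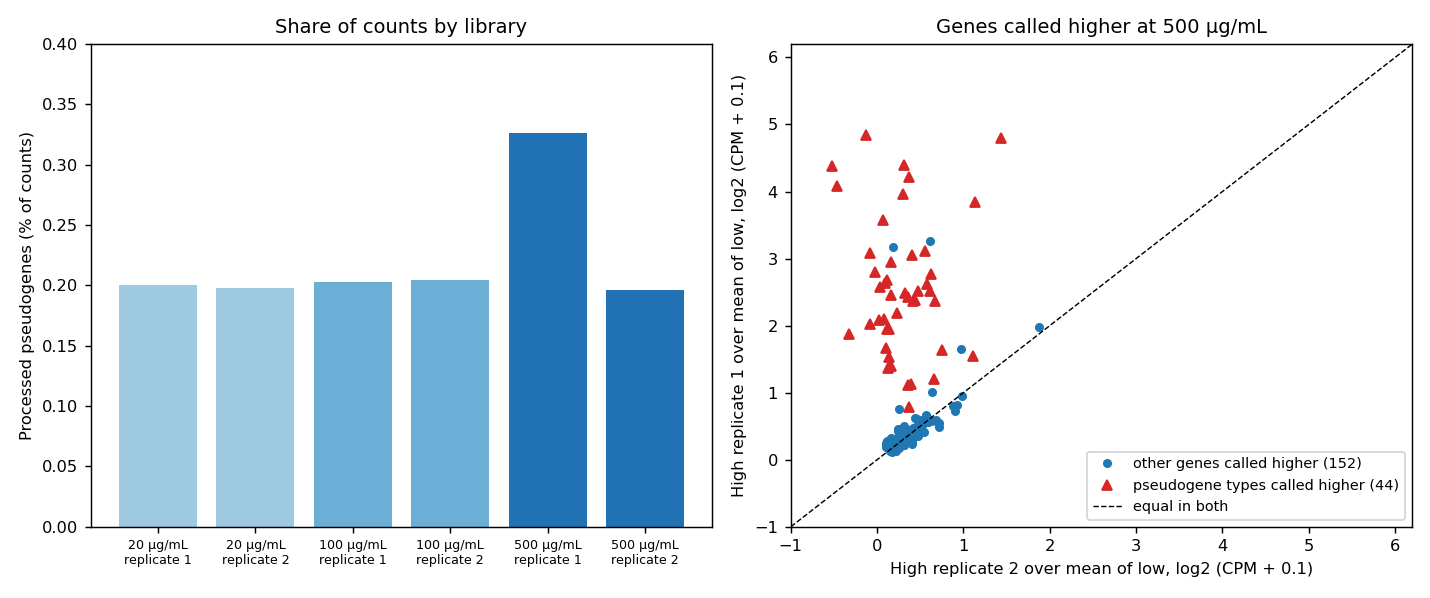
Left, bars give the share of counts in processed pseudogenes (%) in each of the 6 Soyo-san libraries: high-dose replicate 1 is at 0.326% and the other 5 lie between 0.196% and 0.205%. Right, each point is 1 of the 196 genes called higher, with its level in high-dose replicate 1 (vertical) and replicate 2 (horizontal) over the low-dose mean, log2 of CPM + 0.1; the 44 pseudogene types (red triangles) lie above the dashed line of equality, and most of the other 152 genes (blue circles) lie along it.

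NRF2 targets held more rises than any other of the 31 lists. All 24 listed genes were tested and 19 rose, none fell and 5 did not pass; in each of the 24 both high-dose libraries lay above both low-dose libraries, against 22.1% of all genes tested. The list median was a log2 of 0.40, beside -0.0027 for all genes. Without high-dose replicate 1, 15 of the 24 rose, and 14 were called whichever library was left out. The 24 genes summed to 12376 and 12208 CPM at high dose and 10143 and 9914 CPM at low dose. For this and the later lists, the shares over all genes tested were 1.15% called higher and 1.44% called lower.

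The sequences before 4 of these genes are shown because they hold matches to a loose search pattern for the antioxidant response element. In addition, 2 of them, AKR1C1 and AKR1C2, are near-copies that the counting may not fully separate. Each window runs from 250 bases before to 50 bases after the RefSeq start site (RefSeq, GRCh38.p14), 5′ to 3′ on the gene's strand. Capitals mark the matches to this pattern, TGANNNNGC, searched on both strands. GCLM lies on the minus strand at chr1:93909381-93909680, TXNRD1 on the plus strand at chr12:104215529-104215828, AKR1C1 on the plus strand at chr10:4963165-4963464 and AKR1C2 on the minus strand at chr10:5003808-5004107.
GCLM: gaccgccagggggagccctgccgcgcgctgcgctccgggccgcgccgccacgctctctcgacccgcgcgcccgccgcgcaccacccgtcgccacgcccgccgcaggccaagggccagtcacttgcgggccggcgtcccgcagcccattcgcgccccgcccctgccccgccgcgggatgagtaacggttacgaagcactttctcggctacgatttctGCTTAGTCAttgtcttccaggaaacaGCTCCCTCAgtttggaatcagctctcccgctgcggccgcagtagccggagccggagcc
TXNRD1: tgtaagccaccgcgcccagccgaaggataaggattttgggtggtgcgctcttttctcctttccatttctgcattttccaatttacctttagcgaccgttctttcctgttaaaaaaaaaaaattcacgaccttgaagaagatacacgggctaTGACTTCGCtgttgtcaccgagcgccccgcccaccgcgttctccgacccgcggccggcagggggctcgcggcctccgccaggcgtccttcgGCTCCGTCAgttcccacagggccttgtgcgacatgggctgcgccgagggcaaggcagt
AKR1C1: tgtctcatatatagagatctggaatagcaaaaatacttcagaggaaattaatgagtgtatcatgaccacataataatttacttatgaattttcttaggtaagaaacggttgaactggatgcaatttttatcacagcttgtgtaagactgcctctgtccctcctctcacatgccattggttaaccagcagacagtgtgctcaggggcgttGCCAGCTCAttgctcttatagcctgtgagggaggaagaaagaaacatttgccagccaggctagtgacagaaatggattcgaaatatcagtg
AKR1C2: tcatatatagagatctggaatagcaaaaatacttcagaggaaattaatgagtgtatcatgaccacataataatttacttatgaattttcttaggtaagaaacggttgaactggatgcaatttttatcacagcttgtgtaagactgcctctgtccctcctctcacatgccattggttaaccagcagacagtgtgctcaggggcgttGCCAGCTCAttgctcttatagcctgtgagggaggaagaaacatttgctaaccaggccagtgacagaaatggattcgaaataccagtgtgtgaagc
In GCLM the first match begins 34 bases before the start and reads TGACTAAGC on the opposite strand. In TXNRD1 it begins 99 bases before the start and reads TGACTTCGC on the gene's strand. The AKR1C1 and AKR1C2 windows were 89.2% identical over 296 bases without gaps, and both hold TGAGCTGGC on the opposite strand, beginning 41 and 45 bases before their starts. The pattern leaves the base after TGA open: it is G in the AKR1C matches but C in the first GCLM and TXNRD1 matches. The pattern is short and common. It was found in 11 of the 18 NRF2 targets with a window and in 41.84% of all 35116 windows of 300 bases. A match is a description of the sequence, not of binding.

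Glutathione synthesis was represented by 3 genes. GCLC, the catalytic subunit of glutamate-cysteine ligase (ENSG00000001084, GRCh38 chromosome 6, 53497341 to 53616970), stood at 131 and 126 CPM at high dose, 97.2 and 96.9 CPM at medium dose and 87.2 and 87.4 CPM at low dose. The high-dose libraries were clear of the other 4, and GCLC rose by a log2 of 0.56 ± 0.06 (SE, 1.47-fold; adjusted p 1.35e-08, edgeR). GCLM, the modifier subunit of the same enzyme, stood at 90.7 and 92.7 CPM against 60.1 and 63.1 CPM at low dose and rose by 0.57 ± 0.08. SLC7A11, the cystine carrier that feeds this pathway, stood at 246 and 251 CPM against 165 and 169.6 CPM, a log2 of 0.57 ± 0.14 (adjusted p 0.0103, edgeR). Its groups were as far apart as those of GCLM, but its spread across the libraries of the fit was wider, and with any 1 of the 4 libraries left out its adjusted p was 0.0541 to 0.127.

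Aldehyde and ketone reduction gave the largest rises within the NRF2 list. AKR1B10, an aldo-keto reductase (ENSG00000198074, chromosome 7, 134527592 to 134541408), stood at 199.7 and 206 CPM at high dose, 106 and 115 CPM at medium dose and 104 and 103 CPM at low dose. It rose by a log2 of 0.97 ± 0.06 (1.96-fold, adjusted p 4.68e-16, edgeR), the smallest p of all genes tested. The vehicle libraries, which carry another library name prefix, stood at 111 ± 1.49 CPM (SD, n = 3), near its low dose. Not all members were near it: SLC7A11 was at 110 ± 17.6 CPM and GCLM at 50.6 ± 6.43 CPM in vehicle (SD, n = 3), below their low-dose levels. HMOX1, at 12.2 ± 0.579 CPM in vehicle (SD, n = 3), was slightly above its low-dose level. AKR1C2, which reduces steroid and other ketones, stood at 28.0 ± 1.47 CPM (SD, n = 2) against 15.3 ± 0.237 CPM (SD, n = 2) and rose by 0.87 ± 0.10. AKR1C3, its neighbour in the same cluster, stood at 85.8 and 96.3 CPM against 52.3 and 51.0 CPM and rose by 0.82 ± 0.09. In both, the medium dose lay near the low dose, at 15.8 to 16.3 CPM for AKR1C2 and 53.2 to 60.1 CPM for AKR1C3. AKR1C1 stood at 25.7 and 30.2 CPM against 16.5 and 20.1 CPM and rose by 0.61 ± 0.11, though without low-dose replicate 1 its adjusted p was 0.0599 (edgeR).

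Thioredoxin recycling and quinone reduction were higher too. TXNRD1, the cytosolic thioredoxin reductase, stood at 504 and 499 CPM against 357 and 368 CPM and rose by a log2 of 0.47 ± 0.05 (adjusted p 1.46e-08, edgeR). SRXN1, which repairs overoxidised peroxiredoxins, rose by 0.41 ± 0.05, and NQO1, a quinone reductase, rose by 0.39 ± 0.05 from 521 and 513 CPM to 667 and 683 CPM. HMOX1, the heme-degrading oxygenase, stood at 17.3 and 16.6 CPM against 10.8 and 11.3 CPM and rose by 0.61 ± 0.09. The iron store gene FTL rose by 0.40 ± 0.07, whereas FTH1, the other ferritin chain, stood at 4494 and 4467 CPM against 3952 and 3807 CPM and did not pass (log2 0.21 ± 0.07, adjusted p 0.137, edgeR).

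Of the enzymes that supply NADPH, ME1, malic enzyme, rose by a log2 of 0.35 ± 0.06. TKT, transketolase, rose by 0.23 ± 0.06 (adjusted p 0.0127, edgeR), and its adjusted p was 0.0732 to 0.119 with a library left out. PGD, a dehydrogenase of the pentose phosphate pathway, was at 258 and 262 CPM against 245 and 235 CPM and did not pass. OSGIN1, UGDH, GPX2 and EPHX1 were also among the 19 genes that rose, and of these GPX2 was not called without high-dose replicate 1 (adjusted p 0.509) and EPHX1 was not called without any 1 of the 4 libraries. The export pump genes ABCC2 and ABCC3 and the pentose phosphate gene TALDO1 did not pass. GSR, which regenerates glutathione, is not on the list. It is named after its value was seen, and it rose from 65.2 and 67.1 CPM to 87.5 and 85.8 CPM (log2 0.39 ± 0.05).

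**Figure D3:**
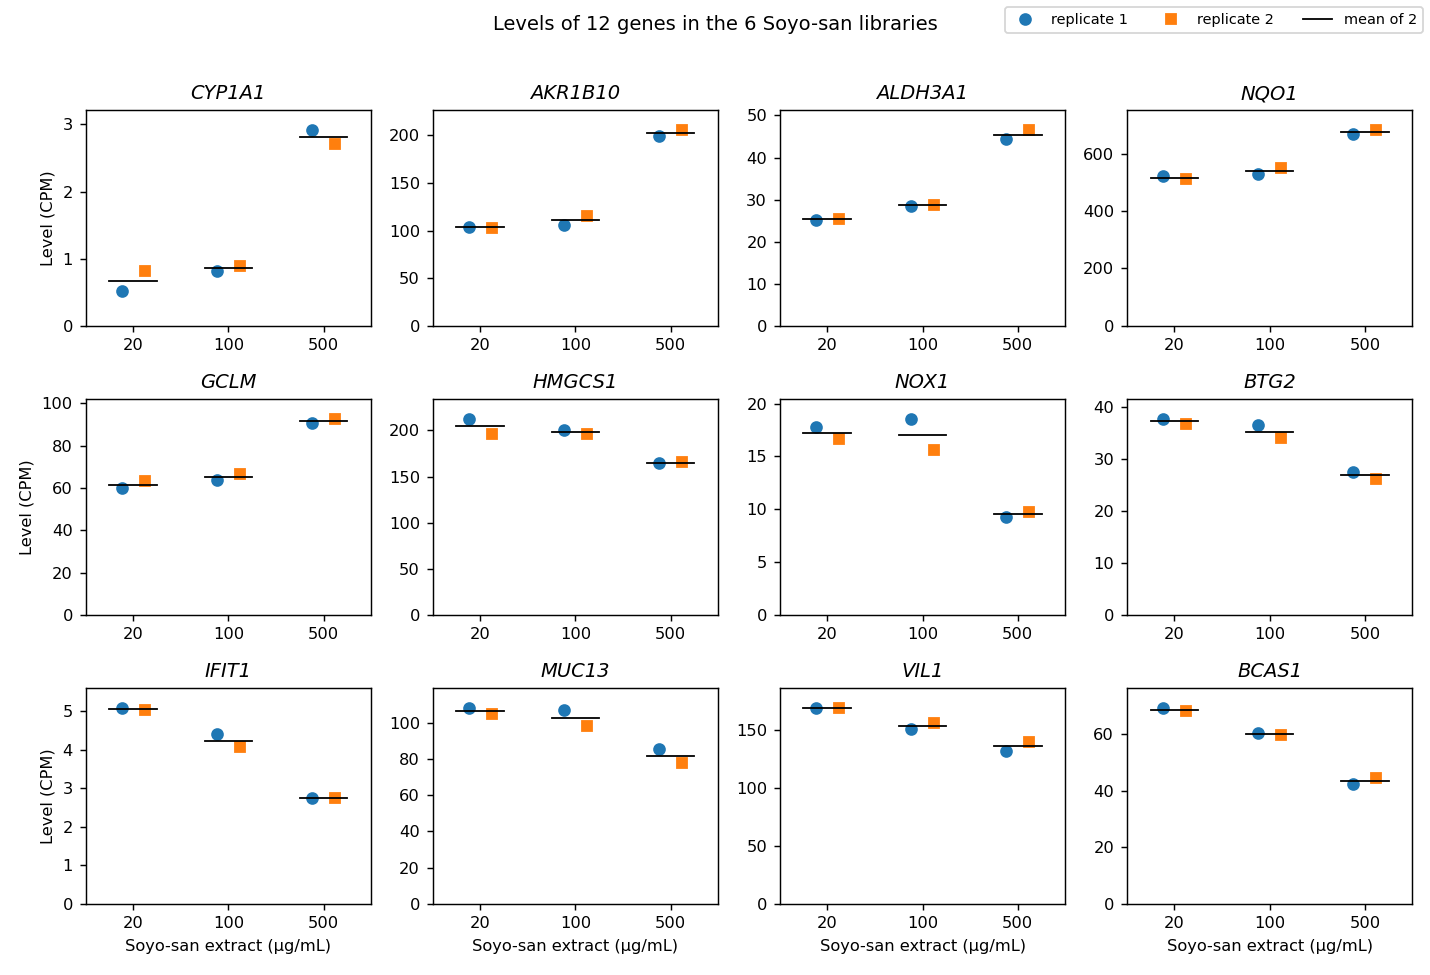
Level in CPM (linear axis from 0) of 12 genes at 20, 100 and 500 µg/mL Soyo-san; blue circles are replicate 1, orange squares replicate 2 and lines the mean of the 2. CYP1A1, AKR1B10, ALDH3A1, NQO1 and GCLM are clearly higher at 500 µg/mL only, and HMGCS1, NOX1 and BTG2 are lower there, while IFIT1, VIL1 and BCAS1 are already somewhat lower at 100 µg/mL.

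AHR targets included CYP1A1, the one gene among the 15 largest rises whose 2 high-dose libraries were alike. CYP1A1, which oxidises polycyclic aromatic compounds (ENSG00000140465, chromosome 15, 74719542 to 74725610), stood at 2.92 and 2.71 CPM at high dose, 0.819 and 0.890 CPM at medium dose and 0.524 and 0.811 CPM at low dose. The vehicle libraries, which carry another library name prefix, stood at 0.664 ± 0.0652 CPM (SD, n = 3). Among the Soyo-san libraries, CYP1A1 was raised in the high-dose libraries alone. Its log2 fold change was 2.06 ± 0.26 (4.16-fold; adjusted p 6.32e-07, edgeR), and with 1 library left out the adjusted p was 8.99e-06 to 0.000474. Of 7 AHR targets tested, 6 rose (list median 0.39) and 5 of these were called whichever library was left out.

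The other AHR targets rose by less. Of those that rose, NQO1 is also on the NRF2 list and is described above. ALDH3A1, an aldehyde dehydrogenase, stood at 44.3 and 46.6 CPM at high dose, 28.6 and 28.7 CPM at medium dose and 25.2 and 25.4 CPM at low dose, a log2 of 0.85 ± 0.05 (adjusted p 9.25e-16, edgeR). CYP1B1 rose by 0.38 ± 0.06 from 49.5 and 49.4 CPM to 64.3 CPM in both high-dose libraries. UGT1A6, a glucuronosyltransferase, rose by 0.44 ± 0.08, but it shares its last exons with UGT1A1 and UGT1A10, so reads may be divided among them. TIPARP, a feedback ADP-ribosyltransferase, rose by 0.27 ± 0.07 and was not called with any 1 library left out (adjusted p 0.0726 to 0.238). AHRR, the receptor's repressor and itself a classical target, stood at 6.32 and 6.55 CPM against 6.59 and 6.56 CPM and did not pass. Among 7 tested targets of PXR and CAR, the xenobiotic nuclear receptors of liver and gut, UGT1A1 rose by 0.48 ± 0.06 and the efflux pump gene ABCG2 by 0.32 ± 0.04. The median of this list was -0.02.

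**Figure D4:**
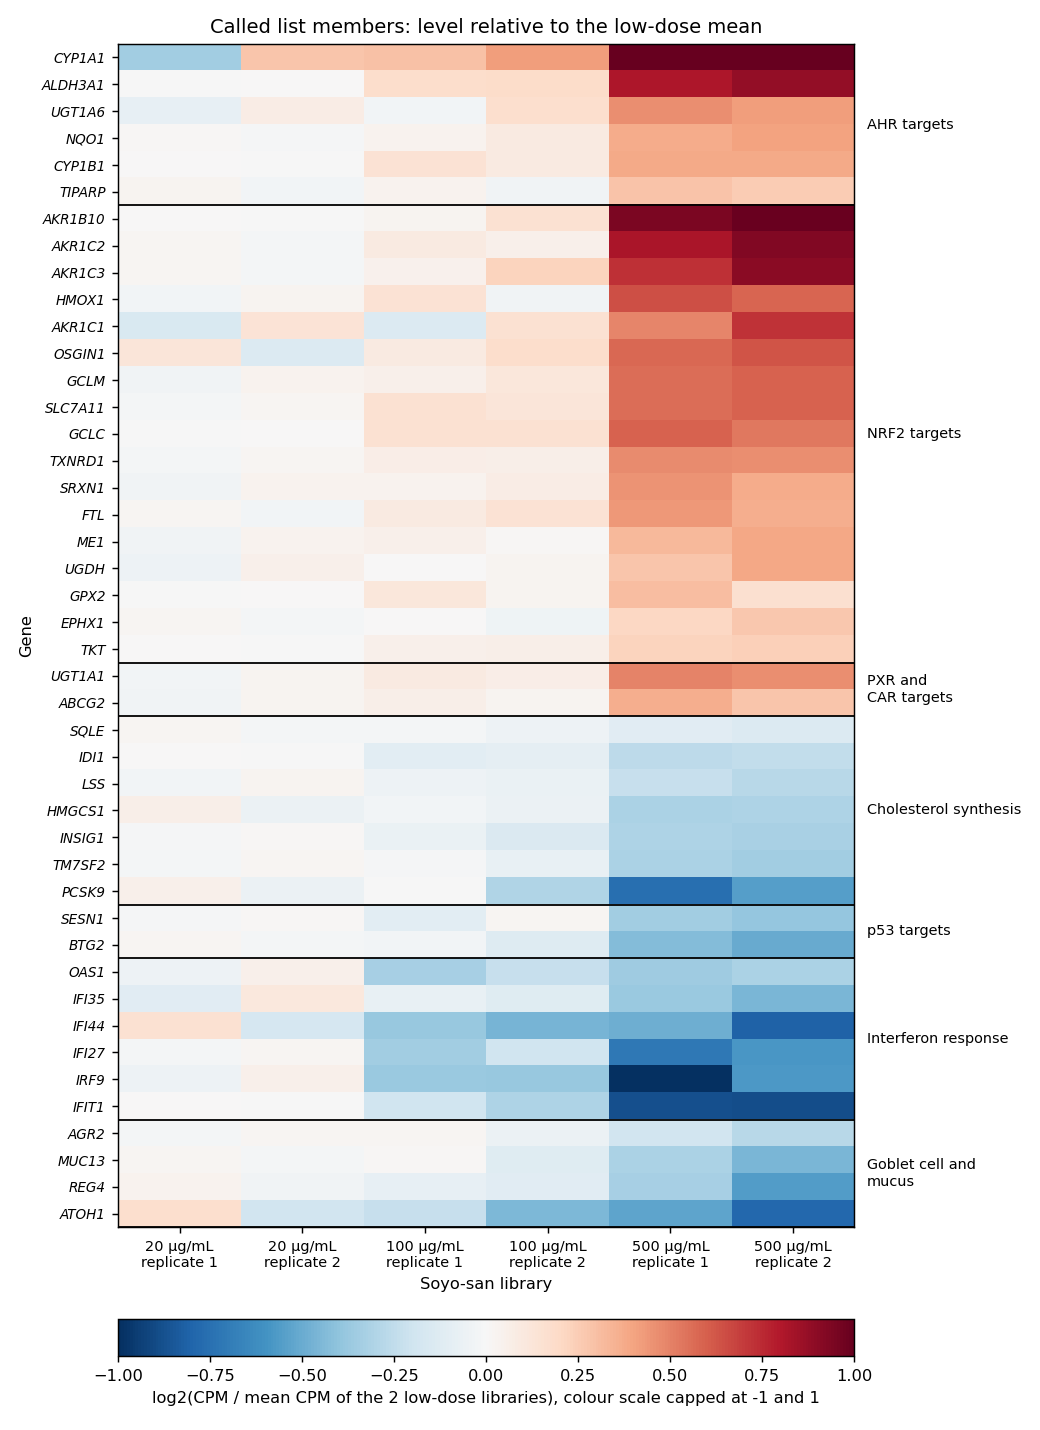
Each row is a list member called in high against low dose, apart from those not reported, each column a Soyo-san library, and colour gives log2(CPM / mean CPM of the 2 low-dose libraries), capped at -1 and 1; a gene of 2 lists is drawn once. AHR and NRF2 targets are red in both 500 µg/mL libraries and pale at 100 µg/mL, and the interferon genes are blue at 500 µg/mL and paler blue at 100 µg/mL.

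Cholesterol synthesis genes were lower by small steps. Of 25 tested, 7 fell and none rose (list median -0.16), and in 23 both high-dose libraries lay below both low-dose libraries, against 24.2% of all genes. Without high-dose replicate 1, 4 fell, and 3 were called whichever library was left out. HMGCS1, which makes HMG-CoA, stood at 164 and 165 CPM at high dose, 201 and 196 CPM at medium dose and 213 and 196 CPM at low dose, and fell by 0.31 on the log2 scale (SE 0.05; adjusted p 8.02e-05, edgeR). INSIG1, a protein that helps hold SREBP in the endoplasmic reticulum, stood at 111 and 110.1 CPM against 137 and 139 CPM and fell by 0.32. LSS, lanosterol synthase, fell by 0.25. The level of HMGCS1 in the vehicle libraries was 170.4 ± 11.7 CPM (SD, n = 3), near its high-dose level, but these carry another library name prefix.

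In fatty acid synthesis 2 of 12 tested genes fell and 1 rose (median -0.07). ACSS2, which makes acetyl-CoA from acetate, fell by 0.65 on the log2 scale (SE 0.09) from 14.8 and 15.9 CPM to 9.16 and 10.5 CPM, LPIN1, a phosphatidate phosphatase, fell by 0.27, and ME1 rose by 0.35. LPIN1 lost its call without any 1 of the 4 libraries, while ACSS2 and ME1 were called whichever was left out. Of 13 fat oxidation genes 3 rose, CPT1A and ACADVL among them (median 0.07), none of them called without high-dose replicate 1.

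Interferon-stimulated genes had the lowest list median, -0.37, although single genes were weakly supported. Of 20 tested, 6 fell (IFIT1, OAS1, IRF9, IFI27, IFI44 and IFI35), none rose, and in 18 both high-dose libraries lay below both low-dose libraries, beside 1.44% of all genes called lower and 24.2% lower without overlap. None of the 6 was called without high-dose replicate 1, and none held whichever library was left out. IFIT1, an RNA-binding antiviral protein, stood at 2.76 and 2.75 CPM at high dose, 4.41 and 4.08 CPM at medium dose and 5.09 and 5.04 CPM at low dose (log2 -0.88 ± 0.20, adjusted p 0.00766, edgeR). IRF9, the DNA-binding part of the interferon complex, stood at 5.00 and 6.79 CPM against 9.74 and 10.4 CPM, and was at 7.80 and 7.75 CPM at medium dose. In both genes the 3 doses did not overlap, with the medium dose between the others. The vehicle libraries had IFIT1 at 3.36 ± 0.902 CPM (SD, n = 3), between the high and the low dose, and they carry another library name prefix than the Soyo-san sets. The interferon-stimulated response element (searched on both strands) was in the promoter window of 9 of the 15 list members with a window and in 3.57% of all windows. Of the 6 members that fell, 3 held it. By the same search, 2 of 4 called AHR targets with a window held the AHR response element, but CYP1A1 did not. None of the 5 called cholesterol synthesis genes with a window held the sterol regulatory element, found in 3.95% of all windows.

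Among goblet cell and mucus genes 4 of 18 tested fell and none rose (median -0.21), 2 of them without high-dose replicate 1. MUC13, a membrane mucin, stood at 85.8 and 77.8 CPM at high dose, 107 and 98.1 CPM at medium dose and 108 and 105 CPM at low dose, and fell by 0.38 on the log2 scale (SE 0.06; adjusted p 0.000132, edgeR). REG4 fell by 0.44, and ATOH1, the transcription factor of secretory cells, by 0.64 from 5.32 and 4.13 CPM to 3.28 and 2.75 CPM. MUC13 was the member called whichever library was left out. Of the gel-forming mucins, MUC2 was at 16.5 and 14.4 CPM against 17.4 and 18.8 CPM and MUC5AC at a log2 of -0.06 ± 0.24, and neither passed. Of 12 tested enterocyte and brush border genes 1 fell (median -0.11): VIL1, the microvillus protein villin, from 169 CPM in both low-dose libraries to 132 and 140.1 CPM (-0.31 ± 0.04, adjusted p 6.26e-07, edgeR), with 151 and 157 CPM at medium dose. Of 11 colon epithelial markers tested CEACAM5 rose by 0.54 ± 0.11, while LGALS4 and VIL1 fell. CEACAM5 was not called without high-dose replicate 1 (adjusted p 0.117, edgeR) or low-dose replicate 2 (0.0599), and LGALS4 was not called without any 1 of the 4.

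Growth arrest and proliferation lists held few calls. Of 16 p53 targets, 25 cell division and 25 DNA replication genes, 3, 16 and 18 had both high-dose libraries above both low-dose libraries. In 9, 0 and 2 of them both lay below. The shares over all genes tested were 22.1% above and 24.2% below. Of 16 tested p53 targets 2 fell (median -0.10), both called whichever library was left out. BTG2, an antiproliferative gene, stood at 27.5 and 26.2 CPM at high dose, 36.5 and 34.1 CPM at medium dose and 37.7 and 36.8 CPM at low dose and fell by 0.47 on the log2 scale (SE 0.06; adjusted p 2.92e-06, edgeR), and SESN1, a stress sensor, fell by 0.37. Of 25 tested cell division genes 2 rose (CCNB1 and CDC20, median 0.05), neither of them without high-dose replicate 1, and of 25 DNA replication genes none was called (median 0.07).

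Stress programmes other than NRF2 gave few calls. Of 20 genes of the integrated stress response 2 rose, both subunits of an amino acid exchanger, SLC7A5 by 0.24 and SLC3A2 by 0.29 (median 0.03). Of 19 endoplasmic reticulum chaperones HSPA5 rose by 0.26 ± 0.05 (median 0.10), and of 17 heat shock genes the HSP90 cochaperone FKBP4 rose by 0.24 ± 0.05 (median 0.13). Of 23 hypoxia and glycolysis genes 3 rose (HK2, ENO1 and LDHA) and ALDOC fell (median 0.06). In these 4 lists, in the order given, both high-dose libraries lay above both low-dose libraries in 7, 16, 12 and 10 genes. They lay below both in 1, 0, 1 and 5 genes. The shares over all genes tested were 22.1% above and 24.2% below. Of the called genes of these 4 lists, HSPA5 alone was called whichever library was left out. SLC7A5, HK2, LDHA and ALDOC were not called without high-dose replicate 1, and SLC3A2 and FKBP4 were not called without low-dose replicate 1. ENO1 was called without high-dose replicate 1 but not without any other of the 4 libraries. None of 12 NF-kB targets and chemokines and none of 5 metallothionein and zinc genes was called (medians 0.04 and -0.12).

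Single members of further lists were called: FOSL1 of 17 MAPK output genes (log2 0.41 ± 0.11), TGFA of 5 EGFR ligands (0.17 ± 0.04), GLA of 24 autophagy and lysosome genes (0.29 ± 0.06), NOLC1 of 23 ribosome biogenesis genes (0.16 ± 0.04) and VDR of 13 bile acid and lipid nuclear receptor genes (0.20 ± 0.06) rose. EPHB3 of 13 WNT targets fell by 0.31, TSC22D3 of 9 steroid and glucocorticoid genes by 0.41 and SERPINA1 of 3 tested hepatocyte markers by 0.29. None of these 8 was called whichever library was left out. The medians of these lists lay between -0.02 and 0.13, apart from -0.29 for the hepatocyte markers. In 18 of 23 ribosome biogenesis genes and 4 of 5 EGFR ligands both high-dose libraries lay above both low-dose libraries. In 0 and 1 they lay below. The shares over all genes tested were 22.1% above and 24.2% below. None of the 13 mitochondrial transcripts was called, though their summed level was 94374 CPM in high-dose replicate 1, 68186 CPM in replicate 2, and 78008 and 82678 CPM at low dose.

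The largest falls were spread over transport, junction and oxidase genes and a noncoding RNA. SLC14A1, a urea channel, stood at 2.36 and 1.92 CPM at high dose, 2.85 and 3.98 CPM at medium dose and 4.64 and 4.41 CPM at low dose, and fell by 1.08 on the log2 scale (SE 0.18, 2.11-fold; adjusted p 0.000124, edgeR). CGNL1, a junction protein, stood at 2.12 and 1.61 CPM against 3.89 and 3.67 CPM and fell by 1.02 (SE 0.17). NOX1, the superoxide-making oxidase of colon epithelium (ENSG00000007952, chromosome X, 100843324 to 100874345), stood at 9.28 and 9.73 CPM at high dose, 18.6 and 15.6 CPM at medium dose and 17.8 and 16.6 CPM at low dose. The NOX1 high-dose libraries stood alone, and it fell by 0.86 (SE 0.10, 1.81-fold; adjusted p 2.26e-07, edgeR). LINC00261, a long noncoding RNA, fell by 0.76 (SE 0.09) in steps, from 14.8 and 15.1 CPM through 11.2 and 11.9 CPM to 8.48 and 9.22 CPM, and SLC6A20, an amino acid transporter, fell by 0.75 (SE 0.12). These 5 were called whichever library was left out.

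The other named falls were ADH6, LINC02035, RNASE4, IFIT1, KLRC2, TP53INP1, CCDC159, CTTNBP2, SHANK2, PDE4DIPP2 and IRF9, with DDX60 and TDGF1 among protein-coding genes, at log2 values of -0.92 to -0.74. Each of these was at most 10.4 CPM in every library of the 6, and each lost its call when at least 1 of the 4 libraries was left out. ADH1C, below the level set for naming and chosen after its values were seen, had the largest called fall of a protein-coding gene, from 1.68 ± 0.263 CPM to 0.495 ± 0.0346 CPM (SD, n = 2) (-1.76 ± 0.29). Among protein-coding rises not yet described, GPAT3, an enzyme of triglyceride synthesis, rose by 0.64 ± 0.10 from 15.3 CPM in both low-dose libraries to 23.1 and 24.6 CPM. TRIM16L rose by 0.62 ± 0.08, though its reads may be shared with its near-copy TRIM16, and PHEX by 0.67 ± 0.19 (adjusted p 0.0499, edgeR), which lost its call without any 1 of the 4 libraries.

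The medium dose lay near the low dose. No gene was called between 100 and 20 µg/mL (0 of 16978, 0%, smallest adjusted p 0.514, edgeR), and DESeq2 called 2. Only 541 genes, 3.19% of those tested, had an unadjusted p under 0.05 (edgeR). Between 500 and 100 µg/mL 124 genes were called (0.73%), 65 higher (0.383%) and 59 lower (0.348%), of which 16 were NRF2 targets, 5 AHR targets and 4 cholesterol synthesis genes. Without high-dose replicate 1 that count was 38, without high-dose replicate 2 it was 232, and without medium-dose replicate 1 or 2 it was 29 or 60. These comparisons share libraries with each other and are given side by side only. The NRF2 list median was 0.06 for medium against low and 0.40 for high against low, that of the AHR list 0.07 and 0.39, that of the cholesterol list -0.05 and -0.16 and that of the interferon list -0.12 and -0.37. NOX1 was at 0.00 for medium against low and -0.85 for high against medium, and SELENOW, a small selenoprotein, was at -0.28 and -0.11, with 97.8 and 95.3 CPM at medium dose, 90.6 and 89.1 CPM at high dose and 118 and 117 CPM at low dose.

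The same dose step was wider for Menthae Herba and Guibi-tang. High against low dose called 4047 genes for Menthae Herba (23.8%; 12.1% higher and 11.8% lower) and 3068 for Guibi-tang (18.1%; 8.91% higher and 9.16% lower), each with 3 libraries per dose against the 2 of Soyo-san. NRF2 targets had a median of 0.57 with Menthae Herba, where 22 of 24 rose, and 0.78 with Guibi-tang, where all 24 rose. AHR targets had medians of 0.65 and 0.73, cholesterol genes -0.27 and -0.23, and interferon genes -0.28 and -0.28, beside 0.39, -0.16 and -0.37 with Soyo-san. Goblet cell genes had medians of -0.82 and -0.43, beside -0.21.

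**Figure D5:**
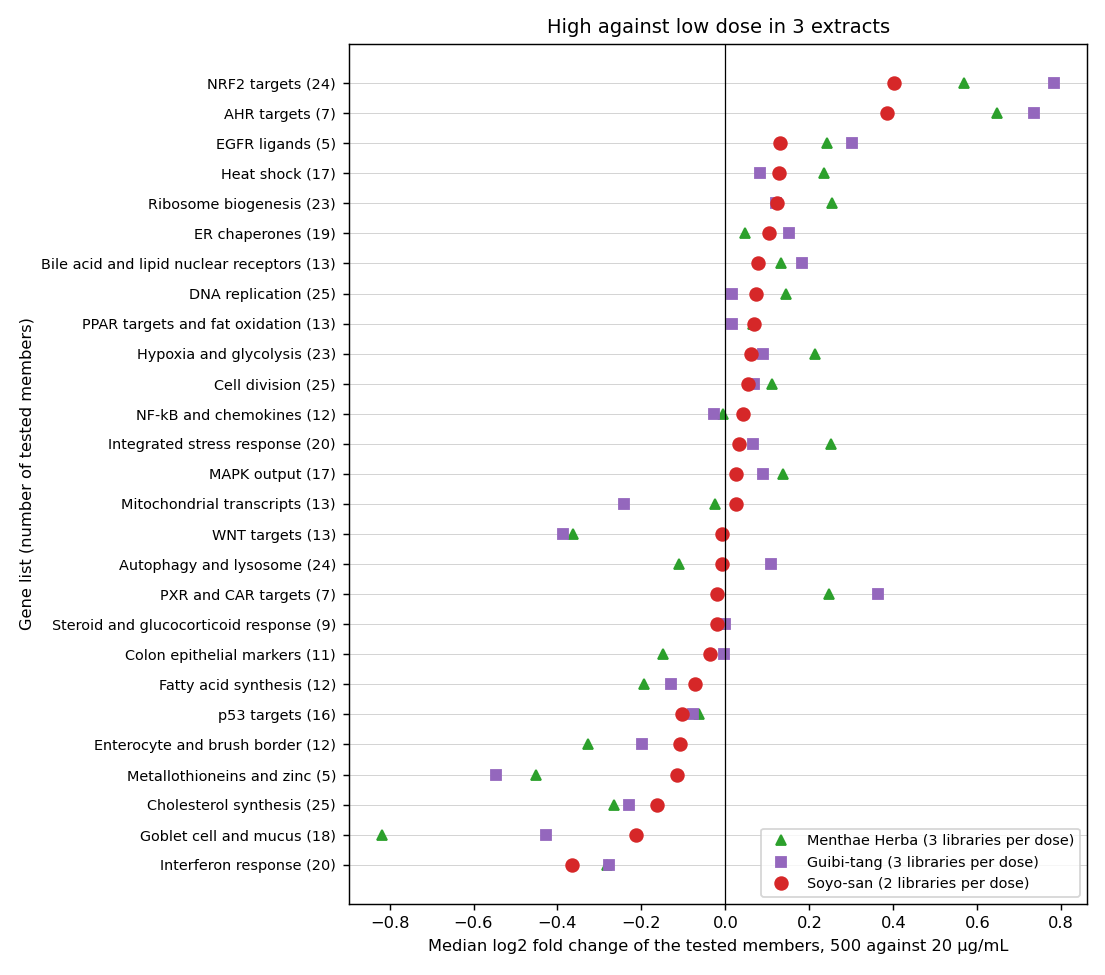
Median log2 fold change of the tested members of each list with at least 5 tested, 500 against 20 µg/mL, for Soyo-san (red circles), Menthae Herba (green triangles) and Guibi-tang (purple squares). The Soyo-san medians lie between -0.37 and 0.40, NRF2 and AHR targets are the highest lists for all 3 extracts, and goblet cell genes reach -0.82 with Menthae Herba.

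The difference between the dose steps was tested gene by gene. Against Menthae Herba, 181 genes differed (1.07%), the Soyo-san step being higher for 144 (0.848%) and lower for 37 (0.218%). With only the libraries of both extracts in the fit 373 genes differed, 211 higher and 162 lower, so the balance depended on the libraries in the fit. Against Guibi-tang, 354 differed (2.09%), higher for 118 (0.695%) and lower for 236 (1.39%). These counts were 45 and 211 without Soyo-san high-dose replicate 1 and 74 and 210 without low-dose replicate 2. Without low-dose replicate 1 the first was 73, and without Menthae Herba high-dose replicate 2 or 3 or low-dose replicate 1 it was 110, 92 or 114. Without Soyo-san high-dose replicate 2 the difference from Guibi-tang was higher for 187 and lower for 190 genes. Of the 24 NRF2 targets the Soyo-san step was smaller than that of Guibi-tang for 14 and than that of Menthae Herba for 2 (HMOX1 and AKR1B10), and larger for none. AKR1B10 rose by 0.97 ± 0.06 with Soyo-san, 1.90 ± 0.05 with Guibi-tang and 1.24 ± 0.05 with Menthae Herba, and HMOX1 by 0.61, 0.94 and 1.29. For AKR1C2 and AKR1C3 the steps with Menthae Herba, 0.87 and 0.82, stood beside 0.87 and 0.82 with Soyo-san, the differences being 0.01 ± 0.12 and -0.01 ± 0.12.

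CYP1A1 rose by 2.06 ± 0.26 with Soyo-san, 3.44 with Menthae Herba and 2.56 with Guibi-tang, and neither difference passed (adjusted p 0.0511 and 0.717, edgeR). For goblet cell genes the Soyo-san step was the higher for 6 of 18 members against Menthae Herba (MUC5AC, MUC13, FCGBP, AGR2, REG4 and ATOH1) and for 4 of 18 against Guibi-tang (MUC13, TFF3, REG4 and ATOH1). For WNT targets it was the higher for 3 of 13 (EPHB2, EPHB3 and CD44) and 2 of 13 (LGR5 and EPHB3). Over all genes the Soyo-san step was the higher for 0.848% against Menthae Herba and 0.695% against Guibi-tang. NOX1 fell by 0.86 with Soyo-san, 1.70 with Menthae Herba and 1.45 with Guibi-tang, and both differences passed (adjusted p 0.000381 and 0.00877, edgeR). In the interferon list no member differed from Menthae Herba and 1, IRF1, from Guibi-tang. UGT1A1 was at 0.48 with Soyo-san, 0.43 with Menthae Herba and 0.41 with Guibi-tang, and neither difference passed.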

How the data were processed

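RNA-seq gene tables of HT29 cells were used, and their expected counts were deposited by the authors. Per the submitters' processing notes, FastQC 0.11.9, Trim Galore 0.6.5, STAR 2.7.3a and RSEM 1.3.3 were used with hg38 (GRCh38). The annotation release and the strand setting are not stated in the labels or headers used. Expected counts were rounded (10.0% of values were not whole). RSEM divides shared reads by estimate, so near-identical copies (pseudogenes, AKR1C and UGT1A genes, TRIM16 and TRIM16L) and overlapping or antisense genes are uncertain.

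Genes kept by filterByExpr (16978) were tested with the quasi-likelihood F-test of edgeR 4.0.16 (R 4.3.3, TMM, 1 coefficient per group) on 56 libraries in 22 groups, leaving out Saposhnikoviae Radix low replicate 2 and groups of 1 library, with 34 residual degrees of freedom. P-values were two-sided and Benjamini-Hochberg adjusted over all genes tested, and 0.05 was the threshold. With 2 libraries against 2, no exact permutation test of 1 gene can reach that threshold. Values after ± are standard errors unless marked SD. CPM use TMM-scaled totals. Gene positions and types are from GENCODE 29 (GRCh38).

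The genes named were the 15 largest called rises and 15 largest falls with a mean of at least 2 CPM in the higher group and no overlap between doses, plus up to 4 called members per list and members that define a list. Further called members of the NRF2, AHR and interferon lists and of other lists were named after their values were seen. The same rule for protein-coding genes alone, the interferon motif and genes marked so were added after values were seen. Members and lists were chosen with earlier results of these data known. A few genes are counted in the totals and lists but not reported by name here. Scripts were checked on simulated data. Alternatives covered the libraries in the fit, normalization, filter, tool (DESeq2 1.42.0), replicate block and leaving out each library.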

Additional observations from a re-analysis of the deposited data

Results flagged for a closer look

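For 9 genes, among those with the smallest p against each comparison extract, the dose step of Soyo-san differed from that of the other extract in a test of the difference itself (edgeR, adjusted over all genes). Differences are Soyo-san minus the other extract on the log2 scale, with their SE.

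Against Menthae Herba, FCGBP, a mucus protein gene, differed by 1.86 ± 0.22 (adjusted p 1.07e-06, edgeR). It stood at 14.2 ± 0.0622 CPM at high dose and 17.8 ± 1.25 CPM at low dose with Soyo-san (SD, n = 2), and at 3.92 ± 0.164 and 17.9 ± 0.239 CPM with Menthae Herba (SD, n = 3). LINC00261 differed by 1.10 ± 0.13 and fell in both, to 8.85 CPM with Soyo-san and 4.14 CPM with Menthae Herba. AQP3, a water and glycerol channel, differed by -0.60 ± 0.07, ANXA10, an annexin, by -0.60 ± 0.08 and ALDH1A3, which makes retinoic acid, by -0.71 ± 0.10. These 3 rose with Menthae Herba and did not pass with Soyo-san.

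Against Guibi-tang, 4 genes rose with both and by less with Soyo-san. AKR1C2 differed by -1.81 ± 0.12 and AKR1C1 by -1.57 ± 0.14, with Guibi-tang high-dose means of 115 and 93.3 CPM beside 28.0 and 27.9 CPM. AKR1B10 differed by -0.94 ± 0.07 and ALDH3A1 by -0.87 ± 0.07. No explanation was tested for any of these differences.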

How the results depend on the processing

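High against low dose called 255 genes with only the 4 libraries compared and 25 with the outlying Saposhnikoviae Radix library in the fit, beside 441. With that library high against medium called 5, the difference from Menthae Herba 4 and that from Guibi-tang 44. The difference from Menthae Herba was called for 373 genes with only both extracts' libraries. Medium against low called 2 genes with DESeq2, both lower. Leaving out 1 library in turn gave 141 to 425 genes for high against low, 29 to 232 for high against medium, 45 to 257 and 210 to 377 for the differences from Menthae Herba and Guibi-tang, and 0 to 0 for medium against low. The cause was not tested. DESeq2 called 400 genes for high against low, 218 higher and 182 lower, beside 196 and 245. With only protein-coding genes tested, chosen after seeing the data, 401 were called. None of the named genes tested in a setting reversed there (46 genes, but 40 with the 1 CPM filter, 44 with DESeq2 and 30 with protein-coding genes alone), and of the 46, 27 lost their call without high-dose replicate 1 and 35 with the outlying library.

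Same-numbered Soyo-san libraries did not deviate together (r -0.0128, 0.0013 and -0.0188 over genes for high with low, high with medium and medium with low). This cannot tell whether same-numbered libraries shared a culture or preparation. With the replicate block 444 genes were called for high against low, 0 for medium against low, 146 for high against medium, and 191 and 371 for the differences from Menthae Herba and Guibi-tang. With 2 libraries per dose, small changes at low levels were not detectable, and a gene that did not pass is not shown to be the same.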

Other observations

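Several genes outside the lists had small spreads and clear separation, and were chosen after their values were seen. BCAS1 stood at 42.5 and 44.5 CPM at high dose, 60.6 and 59.7 CPM at medium dose and 69.4 and 68.2 CPM at low dose, and fell by 0.66 on the log2 scale (SE 0.07; adjusted p 1.46e-08, edgeR). ATP6V1B1, a subunit of the vacuolar proton pump, stood at 15.6 and 14.6 CPM against 25.5 and 22.0 CPM and fell by 0.65. SELENBP1, a selenium-binding protein gene of differentiated colon epithelium, stood at 12.7 CPM in both high-dose libraries against 19.6 and 18.2 CPM and fell by 0.57. TSPAN12, a tetraspanin, stood at 20.6 and 21.2 CPM against 31.8 and 31.3 CPM and fell by 0.60. By that choice the high and low doses did not overlap in any of these 4, beside 24.2% of all genes lower without overlap. Each belonged to the core of falls called whichever of the 4 libraries was left out.

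Among selenoprotein genes, SELENOH stood at 41.2 and 43.1 CPM at high dose, 51.1 and 52.3 CPM at medium dose and 60.4 and 61.2 CPM at low dose, and fell by 0.53 (SE 0.08), whereas the selenoprotein genes TXNRD1 and GPX2 rose. As given above, the call of GPX2 was lost without high-dose replicate 1. ALDH3A2, a fatty aldehyde dehydrogenase, rose by 0.41 ± 0.05 from 107 and 102 CPM to 139 and 138 CPM.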
